A study of Homo sapiens with 9 samples.

Results

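ZEB1 and ZEB2 encode a pair of related repressors of epithelial genes. Their transcripts were followed here in the human endometrial cancer line Hec50, an established cell line, after a mimic of the microRNA miR-200c was added. Every probe set whose only annotated gene symbol was ZEB1 or ZEB2 was taken, which gave 4 probe sets for ZEB1 and 5 for ZEB2, 9 of 54675 on the array. Total RNA was hybridised to 9 one-colour Affymetrix arrays. Of these, 3 came from cells transfected with a synthetic miR-200c mimic at 60 nM for 48 hours, 3 came from cells that received a scrambled control RNA at the same dose and time, and 3 came from mock transfected cells, for which the labels give no dose or time. All 9 came from this 1 cell line grown in the same medium, and the labels do not say that replicates were separate cultures, so the p-values cover the spread among these arrays alone, and it may be technical. The amount of mimic that reached the cells and the ZEB proteins were not measured on these arrays.

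ZEB1 and ZEB2 proteins carry a zinc finger cluster near each end and bind E-box sequences such as CACCTG, mostly in promoters of epithelial genes, where they recruit corepressors such as CTBP1. Their best known target is CDH1, which encodes the adhesion protein E-cadherin. MicroRNAs of the miR-200 family pair with sites in the 3′ untranslated regions of both mRNAs, and the ZEB proteins in turn repress the genes of the microRNAs. The family is shown first because pairing is led by the seed, bases 2 to 8 of the mature microRNA, given here in capitals (RefSeq, GRCh38.p14, 5′ to 3′).
hsa-miR-200c-3p: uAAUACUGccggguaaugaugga
hsa-miR-200b-3p: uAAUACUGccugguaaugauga
hsa-miR-429: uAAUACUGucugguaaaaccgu
hsa-miR-141-3p: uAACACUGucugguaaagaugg
hsa-miR-200a-3p: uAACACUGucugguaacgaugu
miR-200c-3p, the mature strand encoded at chr12:6963742-6963764 on the plus strand, shares its seed AAUACUG with miR-200b-3p and miR-429, and these 3 were the only ones with it among 2370 mature microRNAs in the table. miR-141-3p and miR-200a-3p form the other seed group, with AACACUG. A transcript site that pairs with the whole miR-200c seed reads CAGUAUU. The microRNA sites of the ZEB mRNAs themselves were not analysed here.

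With the mimic, 3 of 4 ZEB1 probe sets and 2 of 5 ZEB2 probe sets were lower than with the scrambled control, and 0 of 9 were higher (limma, adjusted p under 0.05 over 54613 probe sets). Over all probe sets tested, 8.66% were called, 4.15% lower and 4.52% higher. All mimic arrays lay below all scrambled control arrays in the same 5 of 9, and in 12.5% of all probe sets. Values are log2 expression with the median of each probe set set to 0. They compare arrays and give no level of a transcript beyond a broad class, recovered from how the numbers were stored. In bulk RNA, fewer cells with a transcript and less of it per cell cannot be told apart.

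Probe set 212764_at of ZEB1 was at -1.51, -1.52 and -1.46 in the mimic arrays, against 0.04, 0.00 and 0.17 in the scrambled control arrays and -0.02, 0.04 and 0.17 in the mock arrays. The 3 mimic arrays lay far below all 6 others, and both kinds of control overlapped. ZEB1 was 2.96-fold lower by this probe set (limma log2 change -1.57 with SE 0.07, n = 3 in each group, adjusted p = 1.08e-06), which placed it 5 from the bottom of all 54613 changes. The rounding left by single precision storage shows that the median of this probe set lay between 8 and 9.46 on the log2 scale and that its 3 mimic arrays lay below 8.

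Probe set 210875_s_at of ZEB1 gave nearly the same picture. It was at -1.47, -1.46 and -1.61 in the mimic arrays, against 0.00, 0.00 and 0.24 in the scrambled control arrays and 0.06, 0.14 and 0.19 in the mock arrays. ZEB1 was 3.02-fold lower here (log2 change -1.59, SE 0.08, limma adjusted p = 2.27e-06), which ranked 4 from the bottom.

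The remaining ZEB1 probe sets moved less. Probe set 212758_s_at was at -0.37, -0.65 and -0.75 in the mimic arrays, against 0.00, 0.12 and 0.05 in the scrambled control arrays and 0.04, -0.03 and 0.10 in the mock arrays. The mimic arrays lay below all 6 others while both controls overlapped, and the probe set was 1.57-fold lower than with scrambled RNA (log2 change -0.65, 95% interval -0.84 to -0.45, limma adjusted p = 0.00118). That interval lies apart from the interval of 212764_at, -1.72 to -1.42, although the difference between the probe sets was not tested. Probe set 239952_at was at -0.17, -0.04 and -0.17 in the mimic arrays and -0.08, 0.21 and 0.00 in the scrambled control arrays, and it overlapped (log2 change -0.17, 95% interval -0.41 to 0.07, limma adjusted p = 0.419). Which stretch of the transcript each probe set covers was not analysed here.

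**Figure D1:**
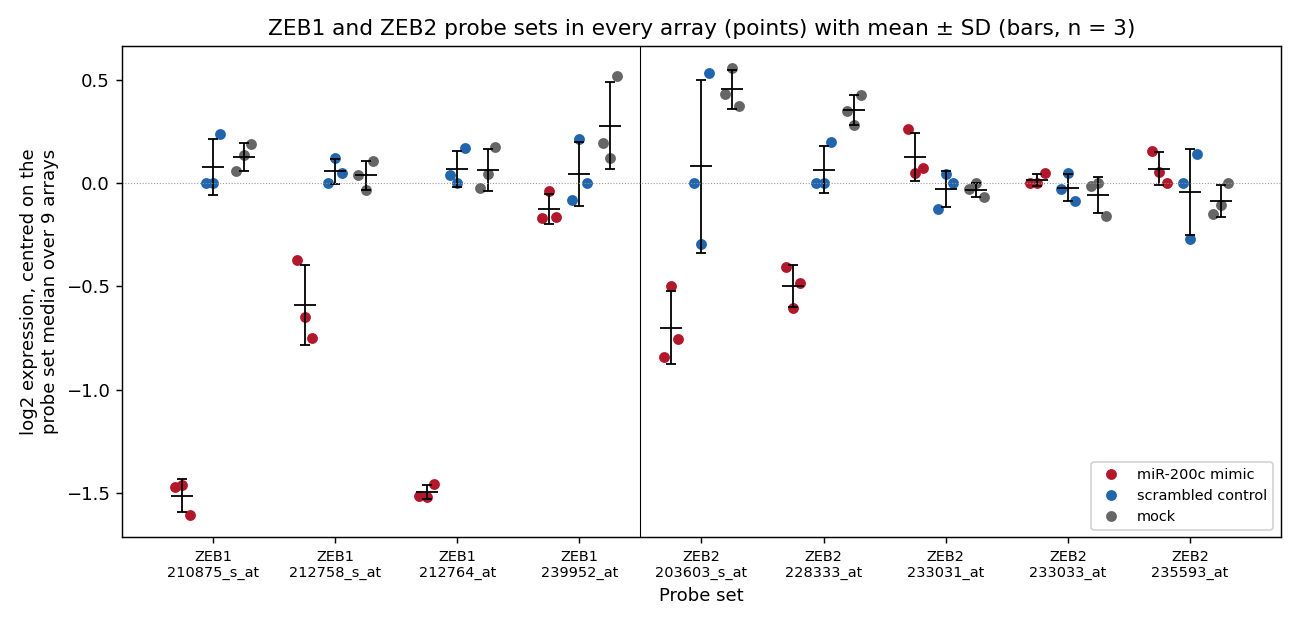
Centred log2 expression (vertical axis) of the 4 ZEB1 and 5 ZEB2 probe sets in each array. Points are arrays of the miR-200c mimic, scrambled control and mock groups, and bars are the mean ± SD (n = 3). Mimic arrays of ZEB1 212764_at and 210875_s_at lie between -1.61 and -1.46, those of ZEB2 228333_at between -0.61 and -0.41, and those of ZEB2 233031_at, 233033_at and 235593_at at 0 or above.

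The called ZEB2 probe sets had smaller changes than the lowest ones of ZEB1. Probe set 228333_at of ZEB2 was at -0.41, -0.61 and -0.48 in the mimic arrays, against 0.00, 0.00 and 0.20 in the scrambled control arrays and 0.35, 0.28 and 0.43 in the mock arrays. The groups stood in 3 separate steps, with the mimic lowest and mock highest. Against the scrambled control, ZEB2 was 1.48-fold lower with the mimic by this probe set (log2 change -0.56, SE 0.08, limma adjusted p = 0.000951). Its median lay between 8 and 8.41 on the log2 scale, with the 3 mimic arrays below 8.

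Probe set 203603_s_at of ZEB2 was at -0.84, -0.50 and -0.76 in the mimic arrays, against 0.00, -0.29 and 0.54 in the scrambled control arrays and 0.43, 0.56 and 0.37 in the mock arrays. The mimic arrays were again below all others, but the scrambled control arrays were widely spread (SD 0.42). It was 1.72-fold lower than with the scrambled control (log2 change -0.78, SE 0.17, limma adjusted p = 0.0175). This call ended without mimic replicate 1 (-0.71, adjusted p = 0.0683) or mimic replicate 3 (-0.75, adjusted p = 0.06), and over 16 alternatives the adjusted p lay between 0.00509 and 0.0804.

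The other ZEB2 probe sets were not called. Probe set 233031_at was at 0.26, 0.05 and 0.07 in the mimic arrays, against -0.13, 0.04 and 0.00 in the scrambled control arrays and -0.03, 0.00 and -0.07 in the mock arrays. Its mimic arrays lay above all 6 others, by a margin that did not pass (log2 change 0.15 against scrambled control, SE 0.07, limma adjusted p = 0.239). Over all probe sets, 11.7% had every mimic array above every scrambled control array. Probe set 235593_at had a log2 change of 0.11 (95% interval -0.10 to 0.33) and 233033_at one of 0.04 (95% interval -0.10 to 0.17). The stored values place 233033_at below 4 on the log2 scale and 233031_at and 235593_at between 4 and 8. The files hold no signal over background, and whether these probe sets detected ZEB2 mRNA was not tested.

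Against mock transfection, 4 of 4 ZEB1 and 2 of 5 ZEB2 probe sets were lower with the mimic and 0 of 9 were higher, where 12.1% of all probe sets were called, 6.98% lower and 5.07% higher. All mimic arrays lay below all mock arrays in those 6 (14.6% of all probe sets) and above them in 1, ZEB2 233031_at (13.6%). The mimic arrays are the same as in the comparison above, so the 2 comparisons are not independent. ZEB1 was 2.95-fold lower by 212764_at (log2 change -1.56, SE 0.07, limma adjusted p = 7.25e-07) and 3.12-fold lower by 210875_s_at (log2 change -1.64 with SE 0.08, limma adjusted p = 1.36e-06). By 212758_s_at it was 1.54-fold lower (log2 change -0.63, limma adjusted p = 0.00128).

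ZEB1 probe set 239952_at passed against mock and not against scrambled control. It was at 0.19, 0.12 and 0.52 in the mock arrays, above its 3 mimic arrays (log2 change -0.40, SE 0.11, limma adjusted p = 0.0333). The call ended without mimic replicate 1, 2 or 3 and without mock replicate 1 or 3, with adjusted p from 0.0566 to 0.0997 in these 5 fits. Without mock replicate 3 its log2 change was -0.28.

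ZEB2 was 1.80-fold lower than in mock by 228333_at (log2 change -0.85, SE 0.08, limma adjusted p = 6.8e-05). By 203603_s_at it was 2.22-fold lower (log2 change -1.15 with SE 0.17, limma adjusted p = 0.00166), and this call held in all 16 alternatives, with a highest adjusted p of 0.0224. The remaining ZEB2 probe sets had log2 changes of 0.07 to 0.16 and did not pass. The ACTB control probe sets differed along with the mock group: their 3′ minus 5′ value averaged 0.02 ± 0.08 in the mimic arrays, 0.10 ± 0.04 in the scrambled control arrays and -0.18 ± 0.03 in the mock arrays (SD, n = 3). For GAPDH these means were -0.015, 0.007 and 0.027. The part of RNA integrity or labelling in the comparisons with mock was not tested.

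**Figure D2:**
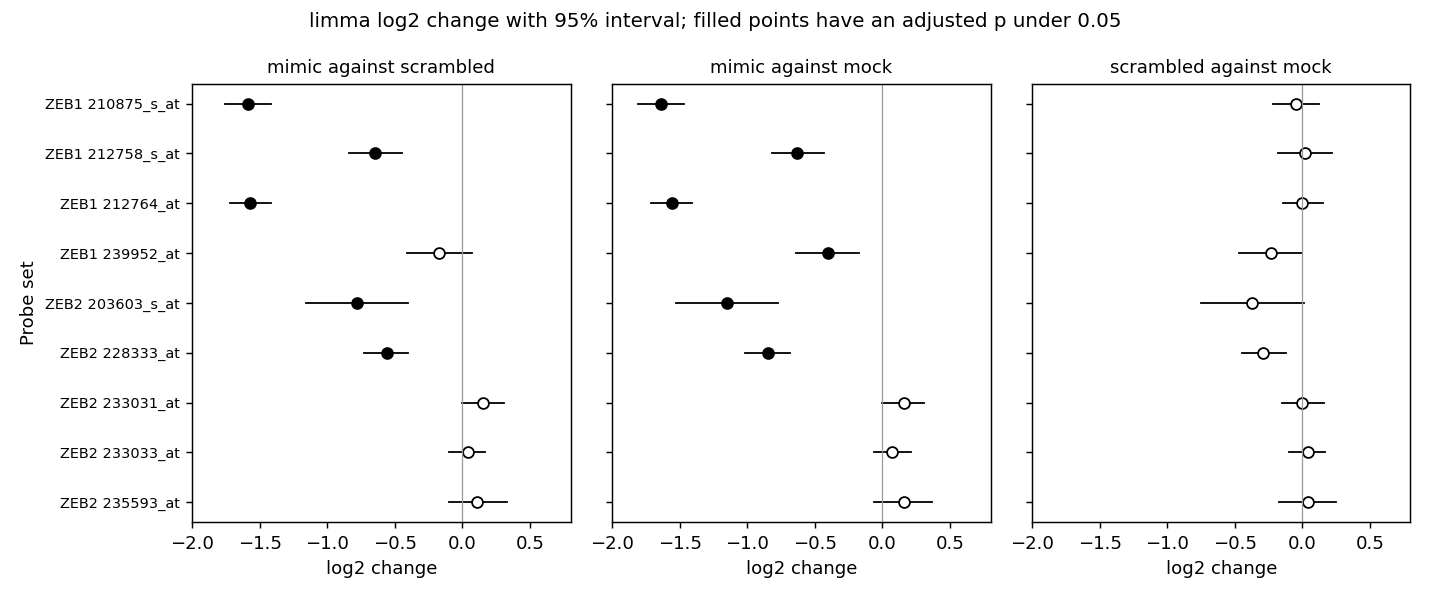
Change of each ZEB1 and ZEB2 probe set (rows) on the log2 scale, as limma estimates with 95% intervals, in 3 panels for mimic against scrambled control, mimic against mock and scrambled control against mock. Filled points passed an adjusted p of 0.05. ZEB1 212764_at stands at -1.57, -1.56 and 0.00 in the 3 panels, and ZEB2 228333_at at -0.56, -0.85 and -0.29.

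By 3 of 4 probe sets, ZEB1 with the scrambled RNA stood close to its mock value. Between scrambled control and mock, 0 of 9 probe sets passed in limma, 1 had an unadjusted p under 0.05 (ZEB2 228333_at), and 4.07% of all probe sets were called, 2.84% lower and 1.23% higher. ZEB1 212764_at had a log2 change of 0.00 (95% interval -0.14 to 0.15), 210875_s_at one of -0.05 (95% interval -0.22 to 0.12) and 212758_s_at one of 0.02 (95% interval -0.18 to 0.22). ZEB1 239952_at was at -0.23 (95% interval -0.47 to 0.00, limma adjusted p = 0.263) and overlapped.

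ZEB2 stood lower with the scrambled control than in mock by 228333_at, with all 3 scrambled control arrays below all 3 mock arrays, as in 12.6% of all probe sets. The log2 change was -0.29 (95% interval -0.45 to -0.12, limma adjusted p = 0.0629), which did not pass. When the same values were tested among 19775 genes in place of all probe sets, the adjusted p was 0.0338. That gene call ended without scrambled control replicate 1 or 2 and without any 1 of the mock replicates, with adjusted p from 0.0545 to 0.106, and also with the mean of all its probe sets (-0.12, adjusted p = 0.284). Probe set 203603_s_at had a log2 change of -0.37 (95% interval -0.75 to 0.01, limma adjusted p = 0.266). Leaving out 1 array moved it between -0.60 and -0.19, and it passed in 1 of 16 alternatives, without scrambled control replicate 3 (adjusted p = 0.0413), with adjusted p up to 0.614 in the others. The change of -0.19 was that without scrambled control replicate 2.

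The responses of ZEB1 and ZEB2 were then set against each other, taking for each gene the probe set of its highest level class, 212764_at and 228333_at. The change of ZEB1 minus that of ZEB2 was -1.0 on the log2 scale for mimic against scrambled control with ZEB1 the lower. Per array, ZEB1 minus ZEB2 lay between -1.11 and -0.91 with the mimic, against -0.03 to 0.04 with the scrambled control and -0.37 to -0.24 in mock. For mimic against mock the difference between the changes was -0.71. For scrambled control against mock it was 0.29, with ZEB2 the gene that stood lower. Groups did not overlap in any of these 3 comparisons, and the exact permutation test gave p = 0.1 in each, two-sided, the smallest value that 3 arrays against 3 allow. When each gene was averaged over all its probe sets, the differences were -0.79, -0.73 and 0.05 (exact permutation p = 0.1, 0.1 and 0.5). The order of the genes also depended on the probe set. Against scrambled control, ZEB1 was at -1.59 by 210875_s_at and -0.65 by 212758_s_at, and ZEB2 at -0.78 by 203603_s_at. Against mock these changes were -1.64, -0.63 and -1.15.

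Genes were next ranked by how closely their values followed those of ZEB1 or ZEB2 over the 9 arrays, among 17695 genes with a level of 4 or more. Closest to ZEB1 by Pearson correlation were BABAM2 (0.996), POGLUT2 (0.995), EPDR1, LHFPL6 and OSTM1 (0.994 each). Their log2 changes with the mimic against the scrambled control were -0.25, -1.39, -0.77, -0.87 and -1.97. Most opposite were EPS8L1 (-0.994), ST6GALNAC5 and TMEM60 (-0.993 each), SLC2A3 (-0.992) and LOXL4 (-0.991), with log2 changes of 0.95, 1.43, 0.26, 1.29 and 0.46. Between scrambled control and mock their log2 changes lay between -0.08 and 0.18, the highest in OSTM1.

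Closest to ZEB2 were CERS6 (0.987), KCTD15 (0.986), RAB18, PAK2 and MVP (0.984 each), whose log2 changes with the mimic were -0.22, -0.40, -0.24, -0.18 and -0.29 against scrambled control and -0.34, -0.58, -0.34, -0.29 and -0.43 against mock. Most opposite were ENPP5 (-0.978), DUT (-0.975), AHR (-0.973), GRB14 (-0.970) and LINC00525 (-0.969). Among these, ENPP5 was higher with the mimic by 1.25 against scrambled control and by 1.78 against mock on the log2 scale. The choice by correlation fixes that these genes follow the pattern of ZEB2. ZEB1 and ZEB2 correlated at 0.929, and 377 genes were closer to ZEB1 than ZEB2 was. These values describe 9 arrays in 3 groups and rest on the differences between groups.

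**Figure D3:**
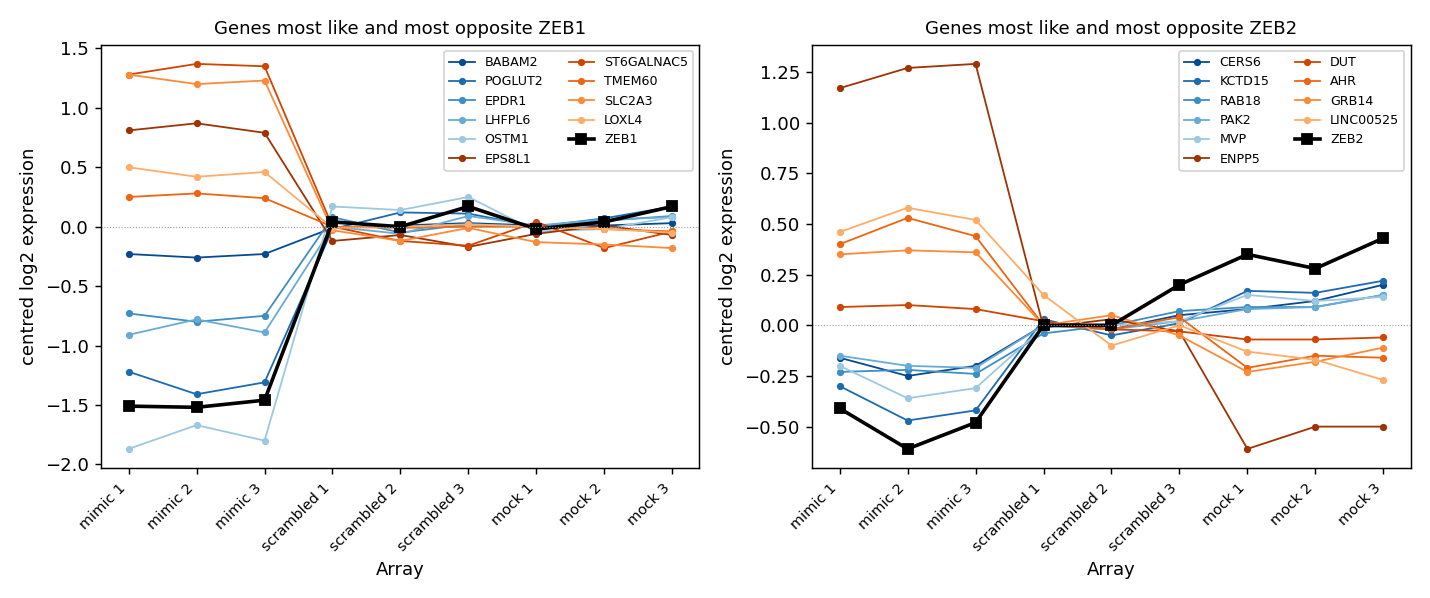
Centred log2 expression (vertical axis) in each of the 9 arrays (horizontal axis) for ZEB1 (left, black) and ZEB2 (right, black), with the 5 genes most like each (blue) and the 5 most opposite (orange). Lines only link the points of a gene. Among the genes near ZEB1, BABAM2 lies between -0.01 and 0.03 over the 6 control arrays and OSTM1 between -0.04 and 0.25. Among those most opposite to ZEB2, ENPP5 stands at -0.03 to 0.03 with the scrambled control and -0.61 to -0.50 in mock.

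Genes that have been reported as repressed by ZEB1 or ZEB2 in other cells mostly rose with the mimic. Of 16 such genes, all measured, 12 were higher than with the scrambled control, 0 lower and 4 did not pass, where 14.6% of all 19775 genes were called and 7.62% were called higher. Their median log2 change was 0.44, against -0.01 over all genes. Against mock, 11 were higher, 0 lower and 5 did not pass (18.6% of all genes called, 8.39% higher, median 0.30 against 0.01). Between scrambled control and mock 0 of 16 passed, 3 with an unadjusted p under 0.05 (CDH1, EPCAM and PKP3), where 7.95% of all genes were called, 5.22% lower and 2.74% higher. These genes were listed with earlier results of these arrays known, so the counts are a description.

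CDH1 was at 3.44, 3.26 and 3.08 in the mimic arrays, against 0.20, -0.19 and 0.00 in the scrambled control arrays and -0.46, -0.14 and -0.27 in the mock arrays. It had the largest change of the 16 (log2 change 3.26, SE 0.12, limma adjusted p = 8.7e-08, or 1.92 when its 2 probe sets were averaged). After quantile normalization its log2 change was 1.69, and that of EPCAM was 0.67, and both still passed (limma adjusted p = 2.63e-05 and 2.28e-05). That step was run on values already centred. It gives all arrays the same set of values, which can shrink the largest changes whatever their true size. EPCAM, an epithelial adhesion molecule, was at 1.05, 1.06 and 1.09 with the mimic, against 0.00, 0.06 and -0.04 with the scrambled control (log2 change 1.06, SE 0.05, limma adjusted p = 3.16e-07). The desmosome genes DSP, which encodes desmoplakin, and PKP2, a plakophilin, rose by 0.69 and 0.71 on the log2 scale (limma adjusted p = 2.29e-05 and 0.000157). Taken singly, 1 of the 2 probe sets of PKP2 was called higher. The 4 that did not pass were CLDN4, a claudin of tight junctions (0.10), ST14, the protease matriptase (0.05), the semaphorin gene SEMA3F (-0.14) and the small GTPase gene RAB25 (-0.21).

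**Figure D4:**
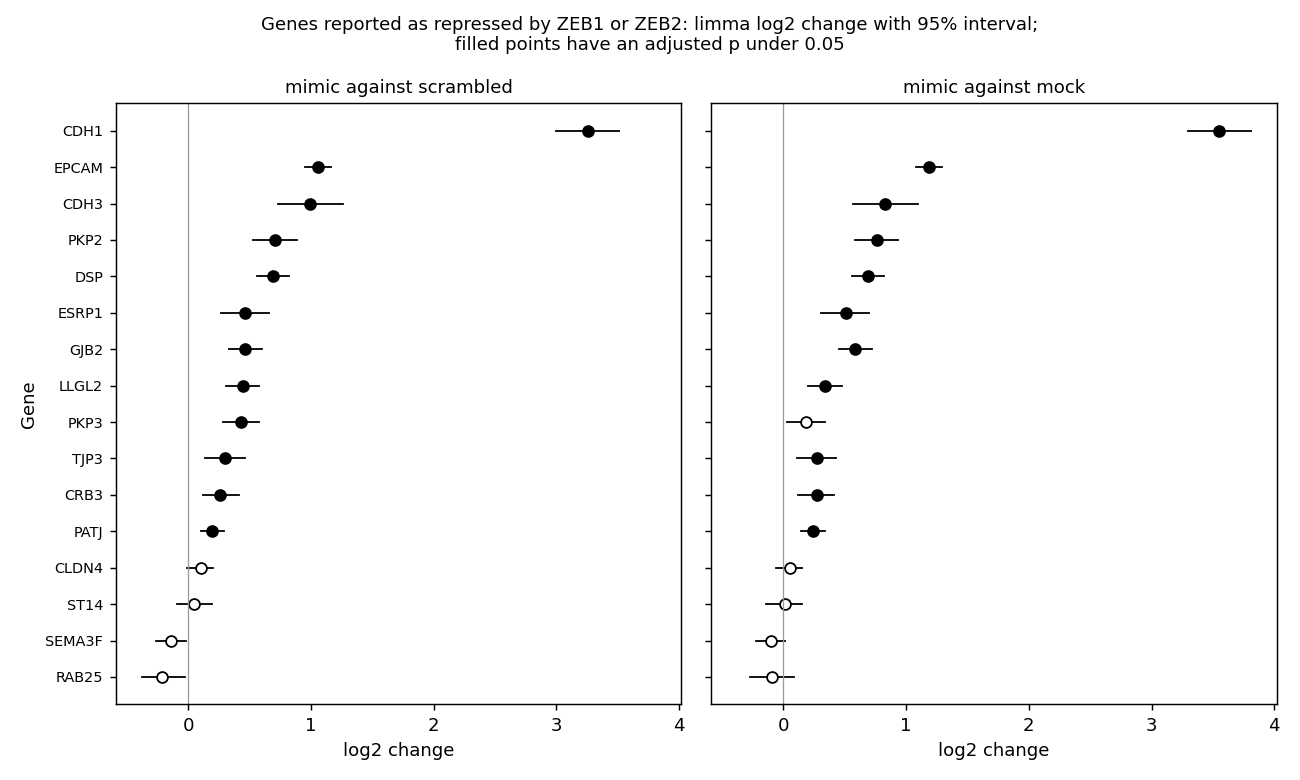
Change on the log2 scale (horizontal axis) with 95% intervals for 16 genes reported as repressed by ZEB1 or ZEB2, with the mimic against scrambled control (left) and against mock (right). Filled points passed an adjusted p of 0.05. CDH1 stands apart at 3.26 and 3.55, and SEMA3F and RAB25 lie below 0.

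The E-box letters CACCTG or CAGGTG, which are the same site read on either strand, were searched in the 250 bases before each annotated start in RefSeq (GRCh38.p14). Of 35116 such windows, 17.5% held a match. Of the 16 genes, 8 had an entry, and 6 of those 8 held a match in at least 1 window, against 20.6% of all 27305 genes. A match was held by 4 of the 5 with an entry that rose, and by 2 of the 3 that did not pass, RAB25 and SEMA3F. CDH1 and EPCAM are among the 8 genes whose windows were not analysed here. The windows with the most matches among genes that rose are shown with the matches in capitals (5′ to 3′ on the strand of the gene), since these are letters a ZEB protein can bind. They lie at chr19:6464021-6464270 for CRB3, chr6:7541421-7541670 for DSP and chr1:61742230-61742479 for PATJ, each on the plus strand.
CRB3: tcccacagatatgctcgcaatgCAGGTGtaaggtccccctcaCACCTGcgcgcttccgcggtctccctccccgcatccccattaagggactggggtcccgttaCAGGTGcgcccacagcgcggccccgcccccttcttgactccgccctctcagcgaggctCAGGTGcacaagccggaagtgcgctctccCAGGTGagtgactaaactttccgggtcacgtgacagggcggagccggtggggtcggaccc
DSP: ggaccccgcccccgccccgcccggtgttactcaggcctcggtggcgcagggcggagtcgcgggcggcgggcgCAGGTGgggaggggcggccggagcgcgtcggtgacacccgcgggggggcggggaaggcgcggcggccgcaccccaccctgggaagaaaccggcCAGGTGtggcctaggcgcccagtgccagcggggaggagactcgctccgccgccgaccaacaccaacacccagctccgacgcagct
PATJ: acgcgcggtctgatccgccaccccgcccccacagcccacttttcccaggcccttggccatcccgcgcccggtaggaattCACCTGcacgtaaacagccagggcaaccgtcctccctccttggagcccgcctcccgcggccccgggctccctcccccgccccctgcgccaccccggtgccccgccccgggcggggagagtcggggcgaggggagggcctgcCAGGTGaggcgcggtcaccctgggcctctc
The window of CRB3, which encodes a protein of apical polarity, held 5 matches, and 0.464% of all windows held 3 or more. The windows of DSP and of PATJ, a scaffold of the same polarity complex, held 2 each, and 2.53% of all windows held 2 or more. CRB3 rose by 0.26 and PATJ by 0.19 on the log2 scale with the mimic against scrambled control (SE 0.07 and 0.04, limma adjusted p = 0.0204 and 0.0122), less than DSP. The call of CRB3 ended without mimic replicate 1 or 3 and without scrambled control replicate 2 or 3 (highest adjusted p = 0.0805), while PATJ passed in all 16 alternatives. Taken singly, 2 of the 6 probe sets of PATJ were called higher and 0 lower. A match describes letters and not a bound site. The genes were listed as reported to be repressed by ZEB1 or ZEB2, and the windows shown were picked by their number of matches. The shares set beside all genes and all windows are therefore a description. GJB2, a gap junction gene, rose by 0.46 with 0 matches in its window. Of the 7 windows of ZEB1 itself 2 held a match, and the 1 window of ZEB2 held 0.

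Genes reported as activated together with ZEB1 or ZEB2 were mostly not called. Of 8 listed, 6 were measured, of which 1 was lower with the mimic than with scrambled RNA, 0 were higher and 5 did not pass (6.99% of all genes called lower, median -0.07). The 1 was VIM, the intermediate filament gene vimentin, at -0.18, -0.28 and -0.22 in the mimic arrays, against 0.02, 0.00 and -0.01 in the scrambled control arrays (log2 change -0.23, SE 0.04, limma adjusted p = 0.00459). The integrin gene ITGA5 was at -0.10, and the matricellular genes CCN1 and CCN2 were at 0.10 and 0.18, all without passing. Against mock 2 of 6 were lower and 0 higher (10.2% of all genes called lower), namely VIM (-0.35) and PLAU (-0.41). PLAU did not pass against the scrambled control (-0.07, limma adjusted p = 0.634). It was also lower with the scrambled control than in mock (-0.35, limma adjusted p = 0.0185). That last call ended without scrambled control replicate 1 or 2 and without mock replicate 3.

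Partners and corepressors of the ZEB proteins were mostly not called. Of 20, 2 were lower with the mimic than with scrambled RNA, 0 were higher and 18 did not pass, a share close to the 6.99% called lower over all genes. SIRT1, a deacetylase, fell by 0.31 (SE 0.04, limma adjusted p = 0.000638), and the acetyltransferase gene EP300 was at -0.23 (SE 0.05, adjusted p = 0.0133). EP300 did not pass when its 2 probe sets were averaged (-0.13, adjusted p = 0.132). The main corepressor genes CTBP1 and CTBP2 were at 0.12 and -0.03. Against mock 6 of 20 were lower and 0 higher (10.2% of all genes called lower), and without mock replicate 3 only 2 were lower. The 6 included MTA1, a subunit of the NuRD complex (log2 change -0.41, limma adjusted p = 0.00104), which was also lower with the scrambled control than in mock (log2 change -0.24, adjusted p = 0.0386). That last call ended without scrambled control replicate 1 or 3 and without any 1 of the mock replicates, also without mimic replicate 3, and with the replicate number as a block, with adjusted p from 0.0513 to 0.127.

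Of 20 listed regulators of ZEB1 or ZEB2, 19 were measured, and against the scrambled control the mimic arrays had 7 of them higher and 2 lower, while 10 did not pass (7.62% and 6.99% of all genes, median 0.05). With the mean over all probe sets these counts were 5 and 0. TGFB2, a ligand of the TGF-beta pathway that induces both ZEB genes in other cells, was at 0.67, 0.52 and 0.57 in the mimic arrays, against -0.15, -0.16 and -0.07 in the scrambled control arrays (log2 change 0.72, SE 0.05, limma adjusted p = 1.1e-05). OVOL2, a repressor of ZEB1 in epithelial cells, rose by 0.61 (SE 0.06, adjusted p = 5.38e-05) and stood 0.62 higher than in mock. The receptor gene TGFBR1 rose by 0.32 (adjusted p = 0.00192), but averaged over 3 probe sets it was at 0.19 without passing (adjusted p = 0.132). SNAI1 and TWIST1, which encode other transcription factors that promote the epithelial to mesenchymal transition, were at -0.01 and -0.06.

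STAT3, a transcription factor of cytokine signalling, shows how the choice of control bears on this list. It was at 0.03, -0.07 and 0.05 in the mimic arrays, against -0.58, -0.36 and -0.59 in the scrambled control arrays and 0.06, 0.09 and 0.07 in the mock arrays. Set against the scrambled control it was therefore higher with the mimic (log2 change 0.52, limma adjusted p = 0.000269), did not pass against mock (-0.07, adjusted p = 0.517), and was lower with the scrambled control than in mock (-0.59, adjusted p = 0.000751). Against mock, 4 of the 19 regulators were higher, 2 lower and 13 did not pass, where 8.39% of all genes were called higher and 10.2% lower. Among the 2 lower was TGFB1 (-0.52, limma adjusted p = 0.000498), which was at 0.05 against the scrambled control. TGFB1 was also lower with the scrambled control than in mock (-0.58, limma adjusted p = 0.0015). Between scrambled control and mock, 0 of the 19 were higher and 2 lower (2.74% and 5.22% of all genes).

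The label of the cells was set against marker genes. Of 7 genes of an endometrial carcinoma line (PAX8, WT1, ESR1, EMX2, KRT8, KRT18 and VIM), 5 had a level of 8 or more. ESR1 and EMX2 had a level of 4 to 8. Over all probe sets, 28.8% had a level of 8 or more and 16.6% a level under 4, while a gene takes the highest class of its probe sets. Of 5 leukocyte markers and 5 endothelial markers measured, 0 had a level of 8 or more, and 2 of each lay under 4, PTPRC and CDH5 among them. Between mimic and scrambled control, where 14.6% of all genes were called, 5 of the 7 line markers were called. The keratin genes KRT8 and KRT18 were higher (log2 changes 0.51 and 0.50), and the transcription factor genes WT1 and PAX8 were lower (-0.44 and -0.21), as was VIM. Between mimic and scrambled control 1 leukocyte marker was lower (LAPTM5, -0.22) and 0 endothelial markers passed. Against mock, KRT8 did not pass (0.25, limma adjusted p = 0.0616), while KRT18 (0.43), WT1 (-0.53), PAX8 (-0.55) and VIM (-0.35) passed in the same direction. EMX2 was lower against mock (-0.29, adjusted p = 0.0163) and did not pass against scrambled control (-0.09). Of the leukocyte markers, LAPTM5 was lower than in mock (-0.40, adjusted p = 0.000239) and CD3E higher (0.20, adjusted p = 0.0414). CD3E was also higher with the scrambled control than in mock (0.28, adjusted p = 0.0169). Both CD3E calls ended in some fits without 1 array. PAX8 was also lower with the scrambled control than in mock (-0.34, limma adjusted p = 0.00504). The part of these changes in the results for ZEB1 and ZEB2 was not tested. The level classes do not show whether a gene was detected. The SD of differences between replicate arrays over all probe sets lay between 0.131 and 0.182 on the log2 scale, and precision is limited by 3 arrays a group.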

How the data were processed

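Total RNA of Hec50 cells was labelled with biotin and hybridised to Affymetrix arrays, per the labels' protocols. The authors' deposited values are log2 expression for 54675 probe sets by 9 arrays, whose summary and normalization are not given in the sources used here, and the log base is taken as 2. From the values, the median over arrays was 0 in 100.0% of probe sets, and 48.9% held more than 1 exact 0, which can lower the spread. The level class (under 4, 4 to 8, 8 or more) was recovered from the step of single precision storage, and 98.5% of 6000 simulated classes came out right.

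Probe sets were named from the platform annotation. The 62 controls were dropped, and the other 54613 probe sets were fitted with limma 3.58.1 in R 4.3.3 (lmFit, eBayes, two-sided, all 9 arrays, Benjamini-Hochberg, threshold 0.05). Lists were fitted among 19775 genes, each the mean of its probe sets with 1 symbol in its highest level class. Tested on simulated data (mimic against scrambled control, 54613 probe sets), the fit recovered 93.3% of changes of 0.5 and 100% of changes of 1 on the log2 scale.

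Named genes are all ZEB1 and ZEB2 probe sets, up to 4 genes a list by lowest p between mimic and scrambled control, and the 5 highest and 5 lowest correlations with each gene. CRB3, PATJ, GJB2, PKP3, PAX8, PLAU, TGFB1, EMX2, CD3E, SNAI1, TWIST1, CTBP1, CTBP2 and the genes that did not pass were named after their values were seen. The members and lists were chosen with earlier results of these data known. Alternatives were quantile normalization of the centred values, filters on level, fits of 2 groups, and the replicate number as a block. Others were probe sets with 1 symbol, robust empirical Bayes, array weights, the mean of all probe sets, and leaving out each array.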

Additional observations from a re-analysis of the deposited data

How the results depend on the processing

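The falls of ZEB1 210875_s_at, 212758_s_at and 212764_at and of ZEB2 228333_at with the mimic passed against both controls under every alternative in which they were tested. Against scrambled control, 212764_at lay between -1.60 and -1.28 on the log2 scale and 228333_at between -0.61 and -0.50. The calls of 203603_s_at and 239952_at that ended are given with their results, and 203603_s_at also did not pass after quantile normalization (-0.78, adjusted p = 0.0804) or in a fit of the 2 groups alone (adjusted p = 0.0502). No change of a ZEB1 or ZEB2 probe set that passed turned its direction. Among probe sets at a level of 8 or more, where 2 of the 9 were tested, 2 were called with the mimic against each control, and 1, ZEB2 228333_at, for scrambled control against mock (-0.29, adjusted p = 0.0155). Of all probe sets at that level, 28.4% were called with the mimic against scrambled control, 35.6% against mock, and 22.3% for scrambled control against mock. Leaving out 1 array gave 4 to 5 called against scrambled control, 5 to 6 against mock, and 0 to 1 for scrambled control against mock. The gene value of ZEB2 for scrambled control against mock was -0.12 with the mean of all its probe sets, and -0.35 to -0.25 without 1 array. Counts of the gene lists were set against the same alternatives after seeing the data: of the 16 repressed genes, 10 to 12 were higher with the mimic against scrambled control and 9 to 12 against mock.

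Over all probe sets, mimic against mock gave 6585 calls, and 4349 to 6599 without 1 array, lowest without mock replicate 2. Scrambled control against mock gave 2223 calls, 3516 among probe sets of level 8 and above, 1409 in a fit of the 2 groups, 3520 with array weights, and 732 to 2059 without 1 array. With the replicate number as a block it gave 1366. The labels do not say that the replicate numbers pair the arrays, so they were not taken as pairs. Deviations of arrays from different groups correlated at -0.235 to 0.154 with the same number and at -0.216 to 0.363 with other numbers. The block changed no call of a ZEB1 or ZEB2 probe set.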

Other observations

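ZEB1-AS1, a long noncoding RNA gene that starts beside ZEB1 and is read from the opposite strand, has 1 probe set, 229090_at. It was at 0.18, 0.15 and 0.10 in the mimic arrays, against -0.05, -0.33 and 0.03 in the scrambled control arrays and 0.00, -0.01 and -0.12 in the mock arrays. Over all probe sets, 11.7% had every mimic array above every scrambled control array, and 13.6% had every mimic array above every mock array. In 229090_at all 3 mimic arrays lay above all 6 controls, while those of ZEB1 lay below them in 3 of 4 probe sets. The log2 change against scrambled control was 0.26 (SE 0.09, limma adjusted p = 0.102) and that against mock was 0.19 (adjusted p = 0.213), so neither passed, and over 16 alternatives against scrambled control the log2 change lay between 0.15 and 0.33 and the adjusted p between 0.052 and 0.241. The 0.15 was that without scrambled control replicate 2.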
